A study of Mus musculus with 24 samples.

Results

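The endoplasmic reticulum (ER) stress sensors and the CREB3 family transcription factors were described here through 9 genes, chosen by symbol from the 55335 genes of the count data. The sensors were *Ern1*, *Atf6* and *Atf6b*, with *Xbp1*, the transcript that the *Ern1* product splices. The CREB3 family was represented by *Creb3*, *Creb3l1* and *Creb3l2*, and the 2 proteases that release these factors by *Mbtps1* and *Mbtps2*. All 9 genes were found in each of the 24 libraries, with 268 counts (*Mbtps2*) or more in every library, and all 9 passed the filter on low counts in each comparison.

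Bulk RNASeq was performed on cultured primary osteoblasts (OBs) of mouse parietal bone, harvested 8, 14 and 21 days after plating, with 4 libraries per genotype and day. WT cultures came from wild type pups, and Het cultures from pups carrying 1 mutant *Col1a2* allele, in which a cysteine replaces a glycine of the proα2(I) triple helix of type I procollagen. Both genotypes shared the C57BL/6J background, the age at isolation (pups a few days old) and the osteogenic medium with ascorbic acid 2-phosphate. Each culture pooled cells from several pups of 1 genotype and was not sorted, so that it also held cells that make no type I collagen. The libraries are numbered 1 to 4 in each group, and the labels do not say which of them came from separate cultures. By the study's methods, the wells belonged to 2 experiments on different litters, which differed in plating density and in an initial expansion at low oxygen in 1 of them, and wells of 1 experiment and genotype shared pooled cells. The methods give 1 well per genotype and time point in the first experiment and 2 in the second, against 4 libraries per group here. The labels neither explain this difference nor tie libraries to experiments. Throughout, n counts libraries and not independent cultures, so p-values measure the spread between libraries, which may be technical, and the part of the experiment in any difference was not tested.

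The ER folds secreted proteins such as procollagen, and the proteins encoded by *Ern1* (IRE1α), *Atf6* and *Eif2ak3* (PERK) are its classical stress sensors. IRE1α splices *Xbp1* mRNA into the form that encodes an active transcription factor. ATF6, ATF6B and the CREB3 proteins are made as transcription factors anchored in the membrane, which travel to the Golgi and are cut there by the site-1 protease (*Mbtps1*) and the site-2 protease (*Mbtps2*) to release the active part. In OBs, the *Creb3l1* product (OASIS) is known as an activator of type I collagen transcription, and the *Creb3l2* product (BBF2H7) for its role in secretory transport in chondrocytes, through *Sec23a*. Counts per gene hold neither *Xbp1* splicing nor the cleavage of ATF6 and CREB3 proteins, so every value here concerns the amount of mRNA.

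Library totals ranged from 17140202 to 59734231 counts, with a median of 48340136. The 6 libraries of replicate 1 were shallower (17140202 to 25825762) than the other 18 (28159342 to 59734231). They also differed in profile. Across genotypes, their deviations from the group means correlated at -0.671 to -0.207 with those of other numbers on the same day. Results are therefore also given without replicate 1. Whether depth or another difference sets replicate 1 apart was not tested. Counts were expressed as relative quantities (RQ), that is, each count was set against the geometric mean of 4 housekeeping counts of its library (*Sdha*, *Mrfap1*, *Actb* and *Actg1*). OB markers were abundant, since the summed level of *Col1a1*, *Runx2*, *Sp7* and *Ibsp* reached 23562 TPM (transcripts counted per length and scaled to 1 common library sum) or more in every library of days 14 and 21. The 4 macrophage markers were also present, at a summed 1022 to 5228 TPM in WT and 2278 to 13953 TPM in Het cultures at days 14 and 21. In bulk samples, fewer cells of a type and less RNA per cell cannot be told apart.

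The promoters of 2 genes are shown because *Ern1* was higher and *Creb3l2* lower in Het cultures at days 14 and 21, the latter not under every scaling. The 250 bases before the RefSeq transcription start (build GRCm38.p6) are written 5′ to 3′ on the strand of the gene. Capitals mark the motifs searched on either strand, namely TGACG (the start of the cyclic AMP response element, a CREB family motif), CCACG (the ATF6 part of the ER stress response element) and CCAAT (the NF-Y part of that element). The *Ern1* window is chr11:106487797-106488046 and the *Creb3l2* window is chr6:37442149-37442398, both on the minus strand. The GENCODE annotation used below puts the *Ern1* start at 106487852, inside this window. Positions in the *Ern1* window are counted from the RefSeq start.
Ern1: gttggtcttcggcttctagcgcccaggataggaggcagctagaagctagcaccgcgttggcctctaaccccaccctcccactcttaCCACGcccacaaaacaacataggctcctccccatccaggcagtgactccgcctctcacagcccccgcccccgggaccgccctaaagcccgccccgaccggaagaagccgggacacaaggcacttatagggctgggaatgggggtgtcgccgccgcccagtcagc
Creb3l2: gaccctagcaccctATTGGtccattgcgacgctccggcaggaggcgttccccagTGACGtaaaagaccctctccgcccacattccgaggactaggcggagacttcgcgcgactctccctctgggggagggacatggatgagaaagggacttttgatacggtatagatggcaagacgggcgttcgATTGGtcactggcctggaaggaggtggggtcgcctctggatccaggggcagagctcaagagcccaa
In the *Ern1* window, CCACG stood once on the gene's strand, from base -164 to base -160 before the start. In the *Creb3l2* window, TGACG stood at bases -196 to -192, and CCAAT on the opposite strand (read as ATTGG) at bases -236 to -232 and -66 to -62. Among 32851 mouse promoter windows of this length, 28.3% held CCACG, 17.8% TGACG and 33.8% CCAAT, so these matches are common. Promoter windows were at hand for 7 of the 9 genes, without *Atf6* and *Creb3l1*. None of the 7 held the full ER stress response element, in which 9 bases part CCAAT from CCACG on 1 strand (0.113% of all windows), its second form, in which 1 base parts ATTGG from CCACG (0.0304%), the XBP1 motif TGACGTGG (0.563%) or the full cyclic AMP element TGACGTCA (1.55%).

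In the mm10/GRCm38 annotation (GENCODE release M21), all 9 were protein-coding genes, and counts covered the exons of the whole gene. *Ern1* (ENSMUSG00000020715.9) lies on chromosome 11 from 106394650 to 106487852, and *Xbp1* (ENSMUSG00000020484.19) on the same chromosome from 5520659 to 5525893. *Atf6* (ENSMUSG00000026663.6) lies on chromosome 1 from 170704674 to 170867771, and *Atf6b* (ENSMUSG00000015461.15) on chromosome 17 from 34647146 to 34655074. *Creb3l1* (ENSMUSG00000027230.9) lies on chromosome 2 from 91982328 to 92024502, *Creb3l2* (ENSMUSG00000038648.5) on chromosome 6 from 37327255 to 37442146, and *Creb3* (ENSMUSG00000028466.15) on chromosome 4 from 43562332 to 43567060. *Mbtps1* (ENSMUSG00000031835.16) lies on chromosome 8 from 119508156 to 119558735, and *Mbtps2* (ENSMUSG00000046873.18) on chromosome X from 157535371 to 157598715. *Creb3* overlaps *Tln1* (9339 to 29741 counts per library) and *Gba2* (294 to 1060 counts) on the other strand, and *Mbtps2* overlaps *Yy2* (23 to 147 counts). Whether the counting used strand is not given in the sources used here, so the *Creb3* values are less certain than the others. The *Mbtps2* values are also less certain, since *Yy2* lies on the same strand and strand cannot separate their reads.

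Compared per length (TPM), *Creb3l1* was the most abundant of the 9 genes at days 14 and 21, at 345 ± 59.0 TPM (SD, n = 16), which is rank 370 among all genes. *Xbp1* followed at 153 ± 13 TPM and *Creb3* at 103 ± 8.09 TPM, and the ranges of these 3 genes did not overlap. *Mbtps1* (59.3 ± 6.93 TPM), *Atf6b* (47.8 ± 5.16 TPM) and *Creb3l2* (34.9 ± 5.34 TPM) came next, each overlapping its neighbour in this order. *Atf6* (19.0 ± 2.56 TPM) and *Ern1* (16.4 ± 4.10 TPM) also overlapped, and *Mbtps2* was lowest at 6.90 ± 1.00 TPM. At day 8 the order was flatter, with *Creb3l1* (113 ± 17.7 TPM, n = 8), *Xbp1* (109 ± 9.83 TPM) and *Creb3* (94.2 ± 9.21 TPM) not separated from each other.

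**Figure D1:**
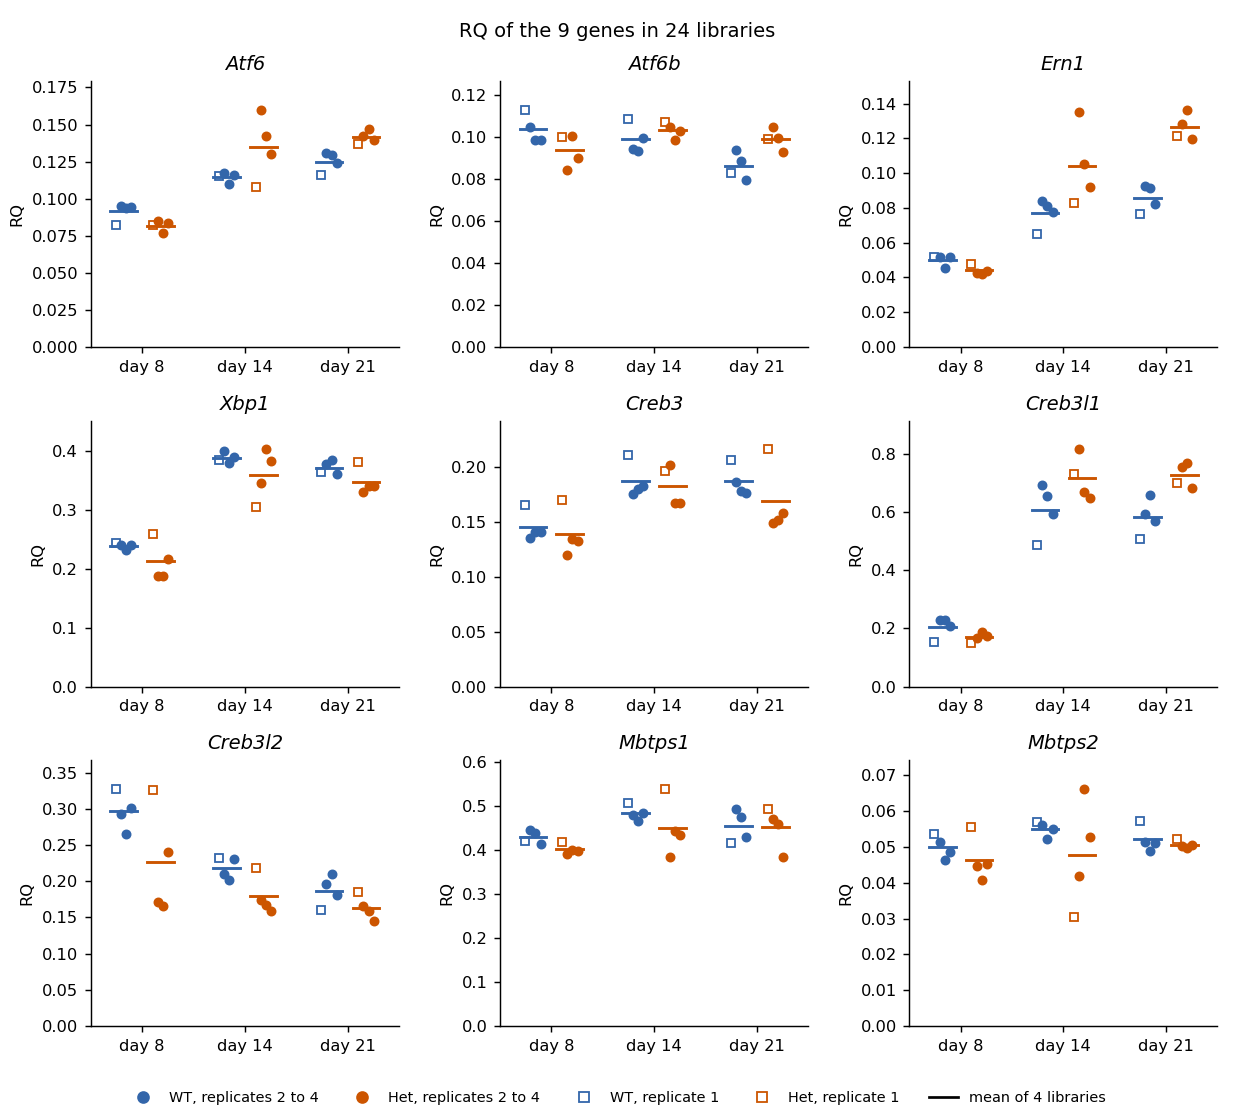
RQ (count over the geometric mean of 4 housekeeping genes, vertical axis from 0) of the 9 genes at days 8, 14 and 21 in 24 libraries, with WT in blue, Het in orange, replicate 1 as open squares and the mean of 4 libraries as a bar. *Ern1*, *Creb3l1* and *Atf6* rose after day 8 in both genotypes. At day 21 these genes were higher in all 4 Het than in all 4 WT libraries. The share of all genes so separated is not given here. *Creb3l2* was lower at the later days in WT (its change in Het was not called).

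The first question was whether the sensors and factors differed between the genotypes at days 14 and 21, the stage at which *Col1a1* and *Col1a2* mRNA were higher than at day 8. Of the 9 genes, 4 differed between Het and WT cultures, with *Ern1*, *Creb3l1* and *Atf6* higher and *Creb3l2* lower, against 16.1% of all 19839 genes tested (edgeR quasi-likelihood test with day as a covariate, Benjamini-Hochberg adjusted p under 0.05). The background was 7.26% for higher and 8.88% for lower genes. With TMM, DESeq2 size factors or total counts in place of the housekeeping genes, 4 of the 9 genes were again called, with *Atf6b* higher in place of *Creb3l2* lower. Among all genes, the split of 1440 higher and 1762 lower became 2463 and 1485 with TMM. It was 2690 and 1380 with DESeq2 size factors, and 3289 and 1008 with total counts. The median log2 fold change of the 9 genes was -0.06, beside -0.05 over all genes. Without replicate 1, *Atf6b* joined the 4 genes, against 39.4% of all genes. The count was 1 (*Ern1*) without replicate 2, beside 328 of all 20112 genes tested. It was 0 without replicate 3 (258 of all 20009 genes) and 0 without replicate 4 (139 of all 19788 genes). The number of calls thus depended on which libraries entered the fit, for the 9 genes as for all genes.

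*Ern1*, the RNase and kinase sensor, changed most of the 9 genes. At day 14 its RQ was 0.0652, 0.0838, 0.0811 and 0.0778 in the 4 WT libraries and 0.0831, 0.135, 0.105 and 0.0919 in the 4 Het libraries. At day 21 it was 0.0764, 0.0924, 0.0915 and 0.0822 in WT and 0.121, 0.128, 0.137 and 0.120 in Het cultures. The genotypes did not overlap at day 21, overlapped by 1 Het library at day 14, and Het exceeded WT in 8 of 8 pairs of the same replicate number and day. Over both days, the log2 fold change of *Ern1* was 0.50 (SE 0.088, edgeR adjusted p = 0.0027), and the mean RQ rose from 0.0813 ± 0.00869 to 0.115 ± 0.0199 (SD, n = 8 each), a ratio of 1.42 (two-sided exact permutation test, p = 0.00124). The *Ern1* call held when any 1 of the 16 libraries was left out, with adjusted p from 0.000486 to 0.00805. It was lost without replicate 3 or without replicate 4 (log2 fold change from 0.46 to 0.53 and adjusted p up to 0.055 over the 4 replicate numbers). *Ern1* was the single gene of the 9 called at day 21 alone (log2 fold change 0.56, edgeR adjusted p = 0.013), against 1.97% of all genes. At day 14 alone, none was called, against 0.185% of all genes. The *Ern1* ratio was 1.27 and 1.58 in replicate 1 at days 14 and 21, within the range of 1.18 to 1.62 over all 8 pairs.

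*Atf6* and *Atf6b* encode the paired membrane-anchored sensors. In WT cultures, *Atf6* RQ at days 14 and 21 ranged from 0.110 to 0.131 (median 0.117) and in Het cultures from 0.108 to 0.160 (median 0.141). The Het libraries were the higher ones in 7 of 8 pairs, with replicate 1 of day 14 as the exception (0.108 against 0.115). At day 21 alone the genotypes did not overlap, at 0.116 to 0.131 in WT and 0.137 to 0.147 in Het cultures. The log2 fold change of *Atf6* was 0.21 (SE 0.062, edgeR adjusted p = 0.031). This call was lost without any of 9 single libraries (WT replicate 1 of day 21, WT replicates 2, 3 and 4 of day 14, WT replicate 4 of day 21, Het replicate 3 of day 14, and Het replicates 2, 3 and 4 of day 21), with adjusted p up to 0.065 and log2 fold changes from 0.16 to 0.25. It was also lost without replicate 2, 3 or 4 (adjusted p up to 0.20). *Atf6b* RQ ranged from 0.0798 to 0.109 in WT and from 0.0928 to 0.107 in Het cultures. Its log2 fold change of 0.13 did not pass (SE 0.048, edgeR adjusted p = 0.073). Besides the 3 other scalings, *Atf6b* passed without WT replicate 1 of day 14 (adjusted p = 0.023). The ratio of *Atf6* to *Atf6b* counts per kb, which needs no scaling between libraries, was 0.317 to 0.465 in WT and 0.301 to 0.456 in Het cultures. That ratio was 1.05 times higher in Het cultures, which did not pass (two-sided exact permutation test, p = 0.484, adjusted over 9 ratio tests p = 0.726).

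*Xbp1*, whose mRNA is the substrate of IRE1α, was not called. Its RQ ranged from 0.360 to 0.399 in WT (median 0.382) and from 0.304 to 0.403 in Het cultures (median 0.343). The Het range enclosed the WT range. The log2 fold change of *Xbp1* was -0.10 (SE 0.054, edgeR adjusted p = 0.20), and Het was higher in 2 of 8 pairs.

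*Creb3l1* and *Creb3l2* differed between the genotypes in opposite directions. *Creb3l1* RQ at day 14 was 0.486, 0.693, 0.656 and 0.594 in WT and 0.731, 0.816, 0.669 and 0.646 in Het libraries. At day 21 it was 0.507, 0.592, 0.658 and 0.569 in WT and 0.698, 0.756, 0.766 and 0.681 in Het libraries. At day 21 every Het library exceeded every WT library, at day 14 the groups overlapped, and Het was higher in 8 of 8 pairs. The *Creb3l1* log2 fold change was 0.28 (SE 0.077, edgeR adjusted p = 0.024), and the mean RQ was 1.21 times that of WT. The exact permutation test gave p = 0.00218, and 0.00781 with arrangements kept within day and replicate number. The edgeR call of *Creb3l1* held without any 1 of the 16 libraries (adjusted p from 0.020 to 0.049). It was lost without replicate 2, 3 or 4 (adjusted p up to 0.15). Without replicate 1, whose ratios were 1.5 and 1.38 at days 14 and 21, the RQ ratio was 1.15.

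*Creb3l2* RQ at day 14 was 0.232, 0.210, 0.201 and 0.231 in WT and 0.219, 0.174, 0.168 and 0.159 in Het libraries. At day 21 it was 0.161, 0.197, 0.210 and 0.181 in WT and 0.185, 0.166, 0.159 and 0.145 in Het libraries. In replicate 1 the Het value was 0.94 times WT at day 14 and 1.15 times WT at day 21, and among replicates 2 to 4 of both days no Het value (highest 0.174) reached a WT value (lowest 0.181). The *Creb3l2* log2 fold change was -0.24 (SE 0.075, edgeR adjusted p = 0.040), and -0.34 without replicate 1 (adjusted p = 0.0002). This call rested on the scaling, since it was lost with TMM (log2 fold change -0.19, adjusted p = 0.071), DESeq2 size factors and total counts. It was also lost without any 1 of 13 libraries, all but WT replicate 1 of day 21 and Het replicate 1 of days 14 and 21 (adjusted p up to 0.084), and without replicate 2, 3 or 4 (adjusted p up to 0.32).

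The ratio of *Creb3l1* to *Creb3l2* counts per kb is free of the choice of scaling. WT libraries of days 14 and 21 held 5.87 to 9.22 (median 8.78), and Het libraries of these days 9.35 to 13.4 (median 12.1). The 2 genotypes did not overlap. The ratio was 1.44 times higher in Het cultures (difference of 0.52 on the log2 scale, two-sided exact permutation test, p = 0.000155, the smallest that 12870 arrangements allow, and 0.0014 adjusted over 9 tests). Without replicate 1 it was 1.46 times higher (exact permutation p = 0.00216, 0.0195 adjusted). *Creb3*, the founding member of the family, did not pass, with RQ of 0.175 to 0.211 in WT and 0.149 to 0.216 in Het cultures (log2 fold change -0.09, SE 0.079, edgeR adjusted p = 0.48).

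**Figure D2:**
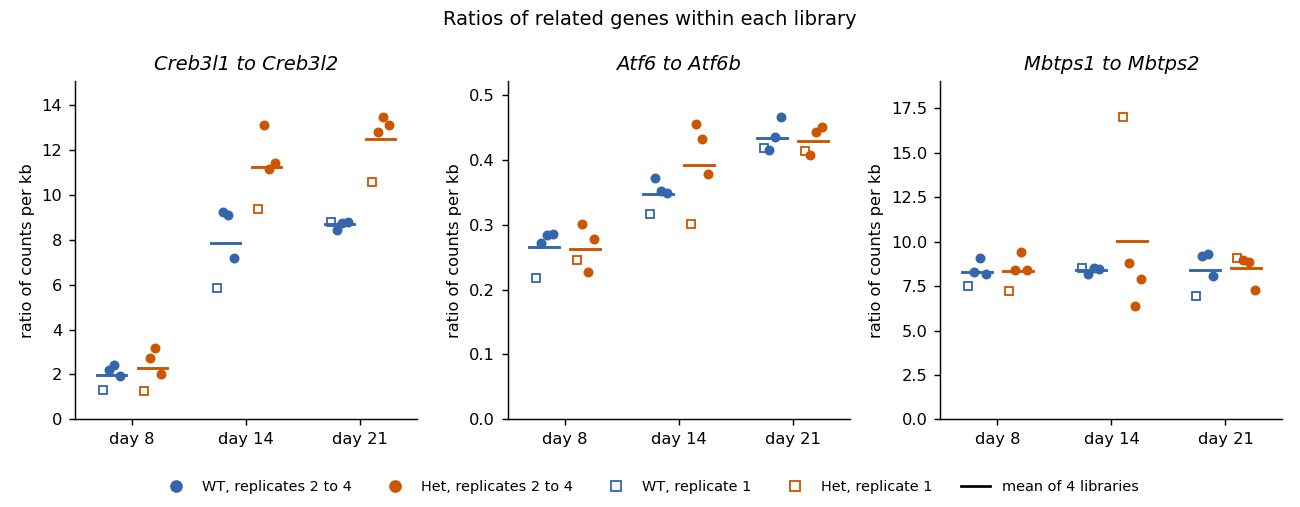
Ratio of counts per kb (vertical axis from 0) for *Creb3l1* to *Creb3l2*, *Atf6* to *Atf6b* and *Mbtps1* to *Mbtps2* in each library by day, with WT in blue, Het in orange, replicate 1 as open squares and the mean of 4 libraries as a bar. The *Creb3l1* to *Creb3l2* ratio was 5.87 to 9.22 in WT and 9.35 to 13.4 in Het libraries at days 14 and 21, and the other ratios overlapped between the genotypes.

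Neither the site-1 nor the site-2 protease passed between the genotypes. *Mbtps1* RQ ranged from 0.415 to 0.506 in WT and from 0.384 to 0.539 in Het cultures (log2 fold change -0.06, SE 0.070, edgeR adjusted p = 0.64). *Mbtps2* RQ ranged from 0.0489 to 0.0573 in WT and from 0.0304 to 0.0663 in Het cultures, with both Het extremes at day 14 (log2 fold change -0.12, SE 0.108, edgeR adjusted p = 0.50). The ratio of *Mbtps1* to *Mbtps2* counts per kb was 6.95 to 9.32 in WT and 6.41 to 17 in Het cultures (exact permutation p = 0.694, 0.802 adjusted).

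Markers of other cells moved with the genotype. All 4 macrophage markers were higher in Het cultures at days 14 and 21 (log2 fold changes from 0.92 to 1.16), and 3 of the 4 OB markers were lower (*Col1a1* -0.39, *Runx2* -0.39 and *Sp7* -0.34, with *Ibsp* at -0.55 not called). The summed OB markers were 23562 to 47034 TPM in WT and 25484 to 37743 TPM in Het cultures. Of the 3 chondrocyte markers, 1 was lower, and their sum was 516 to 2519 TPM in WT and 171 to 3346 TPM in Het cultures. Of the other lists, 1 of 4 osteoclast markers was lower and 1 of 2 endothelial markers tested was higher, the latter at a summed 0.885 TPM or less. The single markers of fibroblasts and of smooth muscle and the 1 marker shared by neutrophils and macrophages did not pass, and the 2 adipocyte markers were too low to test. The part of these cells in the *Ern1*, *Atf6*, *Creb3l1* and *Creb3l2* differences was not tested.

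**Figure D3:**
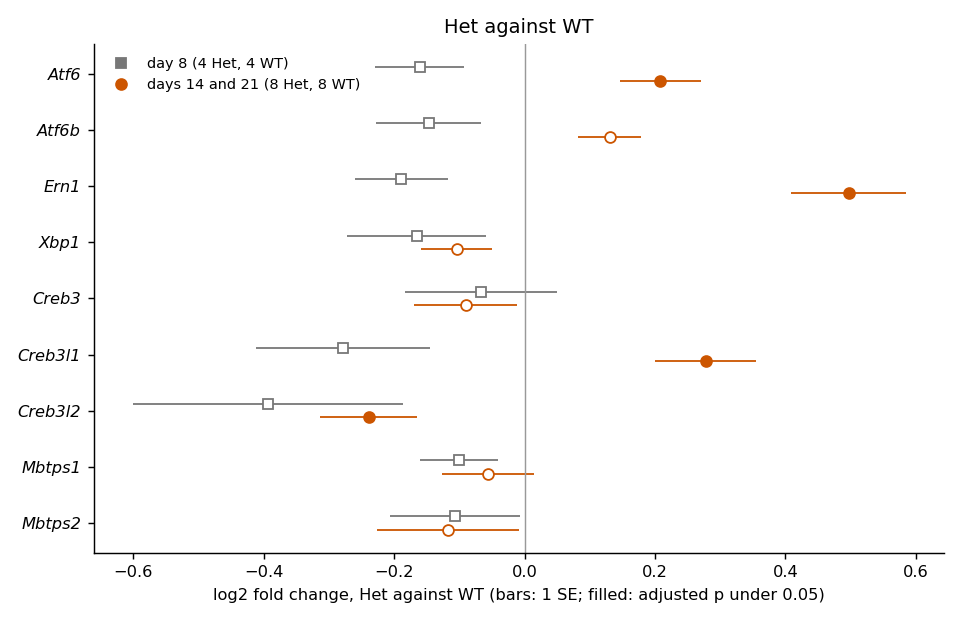
Log2 fold change of Het against WT (horizontal axis, bars of 1 SE) for the 9 genes at day 8 (gray squares, 4 and 4 libraries) and at days 14 and 21 (orange circles, 8 and 8 libraries), filled where the edgeR adjusted p is under 0.05. All 9 estimates were below 0 at day 8, with none called, and *Ern1*, *Creb3l1*, *Atf6* and *Atf6b* lay above 0 at days 14 and 21.

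At day 8, none of the 9 genes was called between Het and WT cultures, and neither was any of the 18222 genes tested (0%, edgeR adjusted p under 0.05, with 1817 genes at an unadjusted p under 0.05 and 431 genes called by the DESeq2 Wald test). Of the 9 genes, *Ern1* and *Atf6* were under an unadjusted p of 0.05, and DESeq2 called none. *Ern1* RQ was 0.0517, 0.0520, 0.0456 and 0.0516 in WT and 0.0480, 0.0428, 0.0421 and 0.0435 in Het libraries, with 1 WT library within the Het range. *Creb3l1* RQ was 0.154, 0.229, 0.230 and 0.208 in WT and 0.149, 0.167, 0.189 and 0.173 in Het libraries, where WT replicate 1 fell among the Het values. *Creb3l2* RQ was 0.328, 0.292, 0.265 and 0.302 in WT and 0.326, 0.171, 0.166 and 0.241 in Het libraries, where Het replicate 1 fell among the WT values. All 9 estimates were negative, from -0.39 for *Creb3l2* to -0.07 for *Creb3*, beside a median of -0.07 over all genes. Without replicate 1, 18.7% of all genes passed in either direction (2598 of 18347 lower and 834 higher). Of the 9 genes, 5 passed as lower in Het cultures. They were *Creb3l2* (-0.57), *Creb3l1* (-0.34), *Xbp1* (-0.26), *Ern1* (-0.22) and *Atf6* (-0.21), with edgeR adjusted p from 0.0087 to 0.048. Leaving out Het replicate 1 of day 8 alone gave 2 calls, *Xbp1* (edgeR adjusted p = 0.049) and *Creb3l2* (adjusted p = 0.036), beside 1610 of all 18443 genes. The macrophage markers summed to 202 to 432 TPM in WT and 362 to 909 TPM in Het cultures at day 8.

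Whether the genotype difference itself changed between day 8 and the later days was tested in 1 fit over the 24 libraries. *Ern1* was the single gene of the 9 that passed, against 0.171% of all 20434 genes tested. Its log2 fold change rose by 0.69 between the stages (SE 0.138, edgeR adjusted p = 0.045), from -0.19 at day 8 to 0.50 at days 14 and 21. *Creb3l1* (0.56, SE 0.151, edgeR adjusted p = 0.29) and *Atf6* (0.37, SE 0.101, adjusted p = 0.29) had the next largest values and did not pass. With the replicate number as a block, *Ern1* (adjusted p = 0.016) and *Creb3l1* (adjusted p = 0.033) passed, beside 67 of all 20434 genes. Without replicate 1, *Ern1*, *Atf6* and *Creb3l1* passed (edgeR adjusted p from 0.0028 to 0.0091), against 4.72% of all genes. The *Ern1* call was close to the threshold. It was lost with TMM scaling (0.63, adjusted p = 0.15) and without any 1 of 19 of the 24 libraries, all but Het replicate 1 of each day and Het replicates 2 and 4 of day 14 (0.61 to 0.73, adjusted p from 0.0074 to 0.16). It was also lost without replicate 2, 3 or 4 (0.62 or more, adjusted p up to 1.0).

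The second question was how the 9 genes changed as the cultures matured. From day 8 to days 14 and 21, 6 of the 9 genes rose and 1 fell, against 40.9% and 17.4% of all 20434 genes tested (58.3% in all, edgeR adjusted p under 0.05). Their median log2 fold change was 0.35, beside 0.16 over all genes. That median over all genes was -0.02 with TMM scaling and -0.14 with total counts, so the smaller rises below depend on the 4 housekeeping genes, and the split over all genes of 8351 higher and 3560 lower became 5601 and 6692 with TMM. Of the 9 genes, 5 rose and 2 fell with TMM or DESeq2 size factors, and 4 rose and 4 fell with total counts, where *Creb3* did not pass. Among all genes, 6145 rose and 6049 fell with DESeq2 size factors. With total counts, 4339 of all 20287 genes tested rose and 8805 fell. Without replicate 1, 7 of the 9 genes rose and 1 fell, against 70.1% of all genes, since *Mbtps2* passed. *Creb3l1* rose most, with a log2 fold change of 1.81 (SE 0.083, edgeR adjusted p = 1.74e-13), which is 3.50-fold. *Ern1* rose by 1.04 (SE 0.072), *Xbp1* by 0.70 (SE 0.057), *Atf6* by 0.57 (SE 0.051) and *Creb3* by 0.35 (SE 0.073), with adjusted p from 7.23e-11 to 0.00032. *Creb3l2* fell by 0.47 on the log2 scale (SE 0.096, edgeR adjusted p = 0.00021). *Mbtps1* passed as higher with 0.14 (SE 0.054, edgeR adjusted p = 0.026) but was -0.04 with TMM scaling and passed as lower with total counts (-0.16, adjusted p = 0.017), and the call was lost without WT replicate 4 of day 8 (adjusted p = 0.055) and without replicate 2, 3 or 4 (adjusted p up to 0.11). *Mbtps2* did not pass (0.09) but was called lower with total counts (-0.205, edgeR adjusted p = 0.031), nor did *Atf6b* (-0.03), which fell with TMM scaling (-0.21, edgeR adjusted p = 0.00021), DESeq2 size factors and total counts. The macrophage markers rose over the same days (log2 fold changes from 2.92 to 4.28), as did the 4 OB markers (0.96 to 5.33), and the 3 chondrocyte markers fell (median -1.26). Their part in these changes was not tested.

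**Figure D4:**
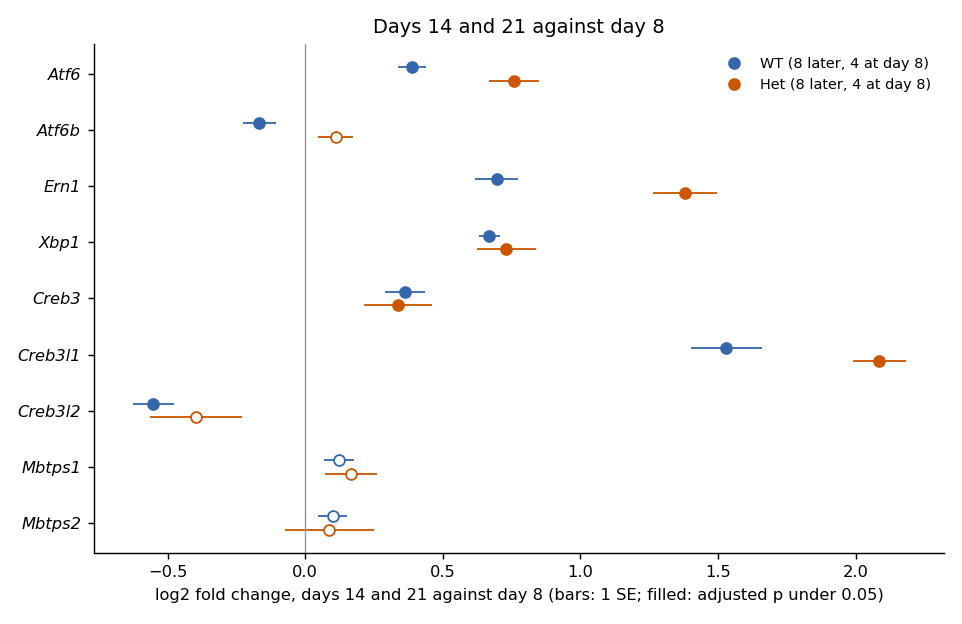
Log2 fold change of days 14 and 21 against day 8 (horizontal axis, bars of 1 SE) for the 9 genes, fitted in WT (blue, 8 later and 4 earlier libraries) and in Het cultures (orange, the same numbers), filled where the edgeR adjusted p is under 0.05. The rise of *Ern1* was 0.70 in WT and 1.38 in Het, and that of *Creb3l1* 1.53 and 2.09, while *Xbp1* rose by 0.67 and 0.73.

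Fitted within each genotype, *Creb3l1* rose by 1.53 (SE 0.130) in WT and by 2.09 (SE 0.096) in Het cultures on the log2 scale. The values for *Ern1* were 0.70 (SE 0.077) and 1.38 (SE 0.118), and for *Atf6* 0.39 (SE 0.050) and 0.76 (SE 0.091). For *Xbp1* they were 0.67 (SE 0.040) and 0.73 (SE 0.108), a difference of 0.06 (SE 0.110). The difference between these rises is the test given above, which only *Ern1* of the 9 genes passed in the fit without a block. *Creb3l2* fell by 0.55 in WT (edgeR adjusted p = 6.55e-05), and its value in Het cultures was -0.40 (adjusted p = 0.077), where replicate 1 of day 8 stood at RQ 0.326 and the other 3 at 0.166 to 0.241. *Atf6b* was lower at the later days in WT cultures (-0.17, adjusted p = 0.033) and at 0.11 in Het cultures (adjusted p = 0.20). The backgrounds were 54.4% of all genes in WT and 40.3% in Het cultures.

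Most of each rise was present by day 14. Against day 8, *Creb3l1* was 1.56 higher at day 14 and 1.5 higher at day 21 in WT cultures on the log2 scale, and 2.08 and 2.10 higher in Het cultures. *Xbp1* was 0.70 and 0.64 higher in WT and 0.75 and 0.71 higher in Het cultures. *Ern1* was 0.62 and 0.77 higher in WT and 1.24 and 1.52 higher in Het cultures. The *Creb3l1* to *Creb3l2* ratio rose 4.27-fold in WT, from 1.32 to 2.43 at day 8, and 5.41-fold in Het cultures, from 1.28 to 3.19 at day 8 (exact permutation p = 0.00202 in each, the smallest that 495 arrangements allow, 0.00455 adjusted). The *Atf6* to *Atf6b* ratio rose 1.47-fold in WT and 1.56-fold in Het cultures (exact permutation p = 0.00202 and 0.00404, 0.00455 and 0.00727 adjusted).

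Between days 14 and 21, none of the 9 genes was called, against 19.3% of all 19839 genes tested (28.9% without replicate 1, where again none of the 9 passed). *Ern1* was 0.22 higher at day 21 on the log2 scale (SE 0.088, edgeR adjusted p = 0.096), and it passed with the replicate block (adjusted p = 0.015) and without Het replicate 2 of day 14 (0.28, adjusted p = 0.017), whose RQ of 0.135 was the highest of that group. *Atf6b* (-0.13, SE 0.048, adjusted p = 0.072) and *Creb3l2* (-0.18, SE 0.075, adjusted p = 0.11) were the lowest estimates, and both passed as lower under TMM, DESeq2 size factors and total counts. *Creb3l1* stayed at -0.02 (SE 0.077, adjusted p = 0.90). By unadjusted p, 3 of the 9 genes were under 0.05 (*Atf6b*, *Ern1* and *Creb3l2*), beside 6246 of all 19839, and the DESeq2 Wald test called 1 (*Atf6b*), beside 4668 of all.

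The 9 genes were set beside 61 other genes of their pathways. Over all genes, 7.26% were higher and 8.88% lower in Het cultures at days 14 and 21. At days 14 and 21, the PERK arm had the largest median difference of the 7 lists between Het and WT cultures. All 6 of its genes passed, 5 higher and 1 lower, with *Trib3*, an inhibitor of ATF4 signalling, at a log2 fold change of 2.78 (SE 0.145) and *Ddit3*, the transcription factor CHOP, at 1.2 (SE 0.096). *Eif2ak3*, the sensor of this arm, was lower (-0.22, SE 0.055, edgeR adjusted p = 0.015). The list name does not assign these genes to PERK. The study counts *Atf4*, *Ddit3* and *Trib3* among genes of the integrated stress response, which kinases other than PERK can also start. Which kinase acted here was not tested. None of the 14 ER folding factors passed, and *Hspa5*, the chaperone BiP, was at 0.02 (SE 0.082, edgeR adjusted p = 0.93). *Dnajb9*, an XBP1 target, was at -0.20 (edgeR adjusted p = 0.21). Of 10 ER-associated degradation (ERAD) genes, *Edem1* was higher (0.29, SE 0.075) and *Edem3*, which also trims mannose from misfolded glycoproteins, lower (-0.36, SE 0.061). *Herpud1*, of the same list, was at 0.17 (edgeR adjusted p = 0.062).

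Of the 9 IRE1 partners tested, *Rtcb*, the ligase that joins spliced *Xbp1*, was higher (0.17, SE 0.049) and *Map3k5*, the kinase ASK1, lower (-0.38, SE 0.072). *Ern2*, the gut paralogue of *Ern1*, did not pass the filter on low counts. Among 8 CREB3 relatives and linked genes, 5 were lower and none higher. These included the collagen chains *Col1a2* (-0.41, SE 0.116) and *Col1a1* (-0.39, SE 0.124) and the COPII coat gene *Sec23a* (-0.25, SE 0.055), of which *Col1a1* is also an OB marker, with *Creb3l3* (-0.25, adjusted p = 0.087) and *Creb3l4* (0.10, adjusted p = 0.77) not called. Among 8 genes of the sterol branch that shares both proteases, 3 were lower, with *Insig1* at -0.44 (SE 0.075) and *Insig2* at -0.39 (SE 0.124). None of the 5 ATF6 partners passed. The list medians were 0.75 for the PERK arm, -0.25 for the CREB3-linked genes and -0.14 for the sterol branch, and lay between -0.04 and 0.00 for the others, beside -0.05 over all genes.

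**Figure D5:**
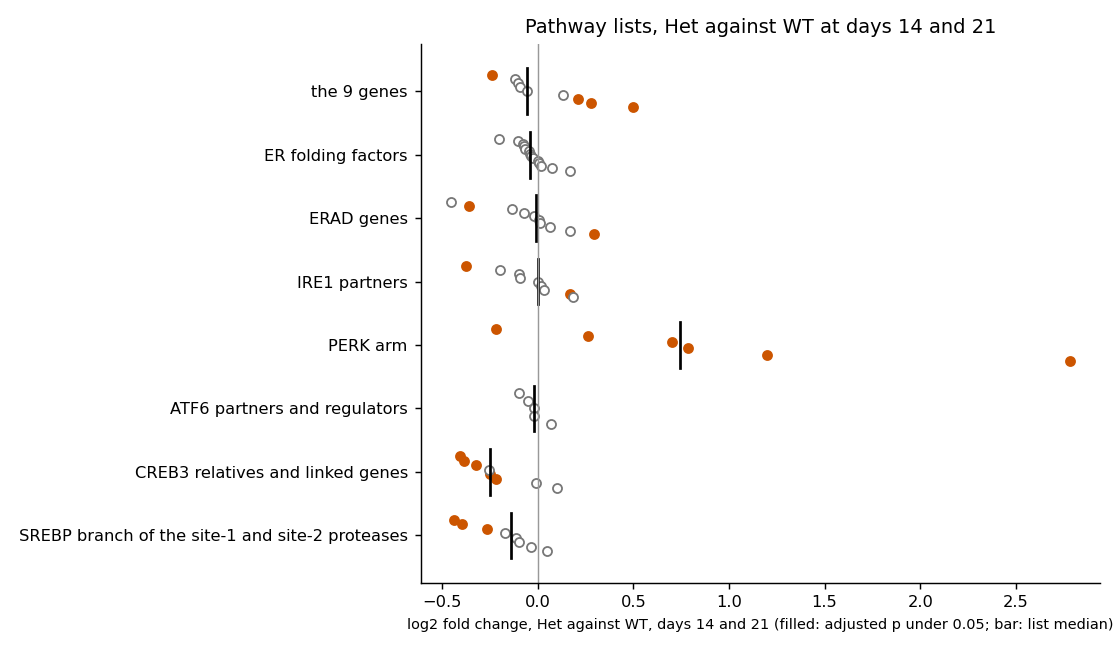
Log2 fold change of Het against WT at days 14 and 21 (horizontal axis) for each gene of the 9 and of 7 pathway lists, filled where the edgeR adjusted p is under 0.05, with a bar at the list median. The list named PERK arm, whose genes other kinases can also induce, reached 2.78 (*Trib3*). None of the 14 ER folding factors was called, and 5 of 8 CREB3-linked genes were lower.

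At day 8, none of these 7 lists held a called gene, nor was any of all 18222 genes tested called. In the test of the change in genotype difference, 3 PERK arm genes passed (*Trib3* 2.18, *Ddit3* 1.2 and *Ppp1r15a*, 0.85) and no gene of the other lists, against 0.171% of all genes. With maturation, all 6 PERK arm genes rose, led by *Trib3* (3.43) and *Chac1* (2.86), a glutathione-degrading enzyme, and *Eif2ak3* rose by 0.25 on the log2 scale but was at -0.05 with total counts. ERAD genes rose in 7 of 10 cases, led by *Herpud1* (1.18) and *Edem1* (0.69), while *Derl3* fell by 0.83. Over all genes, 40.9% rose and 17.4% fell with maturation. The median log2 fold change was 0.14 for the ERAD genes and 0.15 for the IRE1 partners, beside 0.16 over all genes. Only *Dnajb9* (0.98) rose among the ER folding factors, 5 of which fell, led by *Hyou1* (-0.42) and *Pdia4* (-0.38), and *Hspa5* was at -0.02. *Creb3l3* rose by 2.22 and *Creb3l4* fell by 0.53, while *Hcfc1*, which encodes a CREB3 cofactor, fell by 0.42. *Col1a2* rose by 2.02, *Col1a1* by 1.95 and *Sec23a* by 0.23, the last at -0.07 with total counts. Of the IRE1 partners, 6 of 9 rose, led by *Map3k5* (2.19) and *Bloc1s1* (0.45), a substrate of IRE1α in regulated mRNA decay. *Nucb1* rose (0.19, but was called lower with total counts, -0.11, edgeR adjusted p = 0.025) and *Wfs1*, a negative regulator of ATF6, fell (-0.31) among the 5 ATF6 partners. In the sterol branch, *Insig2* rose by 0.98. From day 14 to day 21, 11 of 14 ER folding factors fell, led by *Pdia4* (-0.51) and *Hyou1* (-0.43), with *Hspa5* at -0.36, and none rose. Of all 19839 genes tested, 1178 fell and 2646 rose. In the same interval, *Map3k5* (0.41), *Insig2* (0.42) and *Nfya* (0.16) rose, *Sec23a* (-0.21) and *Nfyc* (-0.17) fell, and no PERK arm or ERAD gene passed.

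The genes most like 3 of the 9 were sought over the 24 libraries by Pearson correlation of log2 RQ among the 14850 genes averaging 50 counts or more. These correlations are descriptions and share the stages, genotypes and housekeeping genes of the libraries. For *Creb3l1* they were *Klf4* (r = 0.984), *Rapgef4* (0.982) and *Ptprz1* (0.981), and within the 6 groups of libraries 0.706, 0.619 and 0.779. For *Xbp1* they were *Pxdc1* (0.988), *Creb3l3* (0.982), a CREB3 relative known from liver and gut, and *Maco1* (0.979), and within groups 0.896, 0.864 and 0.875. For *Atf6* they were *Ern1* (0.964), *Trim8* (0.958) and *Edem1* (0.957), and within groups 0.717, 0.747 and 0.786.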

How the data were processed

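RNASeq counts of 24 libraries (WT and Het OBs, days 8, 14 and 21, 4 per group) were analysed. For every library, the authors deposited a list of unnormalized read counts for 55335 genes, with the exonic length of each gene in bases. Per the submitters' processing notes, cutadapt 2.5, STAR 2.73a, Subread, featureCounts 1.6.4 and mm10 were used. The strand setting and the treatment of reads with several matches are not given in the sources used here. There were no molecular identifiers, so counts can include PCR duplicates.

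RQ followed the study's normalization to 4 housekeeping genes, and TPM was computed from the counts and lengths. Genes were filtered with filterByExpr and tested with edgeR 4.0.16 (R 4.3.3), with the housekeeping geometric mean as library size and Benjamini-Hochberg adjustment over all genes tested, called at 0.05. RQ means and ratios of counts per kb were compared by two-sided exact permutation tests (scipy 1.17.1), with an RQ ratio above 1.2 or below 0.8 required for a change. DESeq2 1.42.0, other scalings and filters, a replicate block, replicate 1 as a covariate, single days and genotypes, and leaving out each library or replicate number were alternatives. The 4 contrasts of 1 later day with day 8 in 1 genotype were added after the data were seen. On simulated data, 2-fold changes of 200 genes were recovered in 93.5% (days 14 and 21, 19839 genes), 73.5% (day 8, 18222 genes) and 70.5% (change in genotype difference, 20434 genes) of cases, and in 94.5% (maturation, 20434 genes) and 91% (day 21 against day 14, 19839 genes). The simulated libraries shared 1 mean per gene before the change, so they held no shift of replicate 1 and no shared cultures. Recovery of the smaller genotype differences reported here was not simulated.

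Replicate numbers come from the labels. The deviations of same-numbered libraries from their group means correlated at 0.195 to 0.713 in all 12 comparisons of 2 groups. For the 36 unlike numbers the median was -0.12. Every unlike comparison with replicate 1 was negative (-0.671 to -0.207). Among the other numbers, like numbers gave 0.195 to 0.624 and unlike numbers -0.039 to 0.571, so the values overlapped. The numbers thus set replicate 1 apart, but do not establish which of the remaining libraries belong together. Pairs and the block follow the labels, and the blocked value is printed where it changes a call. No 2 libraries of a group agreed within counting noise.

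The 9 genes and all lists were chosen with earlier results of these data known. Named genes were all 9 genes, up to 2 rising and 2 falling genes of each pathway list, list genes with a known role in the pathway, and the 3 genes most like *Creb3l1*, *Xbp1* and *Atf6*. *Ppp1r15a* was named after its values were seen. Coordinates were matched to GENCODE release M21 by identifier, with an identical version for 8 of the 9 genes and another version for *Xbp1*. Promoter windows came from RefSeq. Protein sequences were not used here. Some results of the sterol branch list are not reported here.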

Additional observations from a re-analysis of the deposited data

Results flagged for a closer look

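Among 54 groups of 4 libraries (9 genes, 2 genotypes and 3 days), 3 held a library far from the other 3 by Dixon's test, where chance alone gives about 1 in 20. *Atf6* RQ in WT replicate 1 of day 8 was 0.0826, against 0.094 to 0.0953 in the other 3. *Creb3* RQ in Het replicate 1 of day 21 was 0.216, against 0.149 to 0.158 in the others. *Ern1* RQ in WT replicate 3 of day 8 was 0.0456, against 0.0516 to 0.052 in the others. Both libraries of replicate 1 came from the shallower set.

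The genotype difference of *Ern1* itself differed between day 8 and days 14 and 21, by 0.686 on the log2 scale (edgeR adjusted p = 0.045). This flag repeats the test given above. The call was lost with TMM scaling, without any 1 of 19 of the 24 libraries, and without replicate 2, 3 or 4.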

How the results depend on the processing

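The number of the 9 genes called moved with several settings. Between Het and WT at days 14 and 21 it was 4, and 2 without a filter or without the day covariate (*Ern1* and *Creb3l1* in both), 0 at day 14 alone and 1 at day 21 alone, and 0 to 5 when libraries or replicate numbers were left out. At day 8 it was 0 to 5 with libraries left out. For the change in genotype difference it was 1, and 0 with TMM, DESeq2 size factors or without *Actb* or *Mrfap1* among the housekeeping genes, 2 with the DESeq2 Wald test, the replicate block or the replicate 1 covariate, and 0 to 3 with libraries left out. For days 14 and 21 against day 8 it was 7, and 6 to 8 with libraries left out. For day 21 against day 14 it was 0, and 2 with TMM, DESeq2 size factors or total counts, 1 with the DESeq2 Wald test, the replicate block or the replicate 1 covariate, and 0 to 1 with libraries left out. By the RQ rule 2 genes changed (*Ern1* and *Creb3l1*), 3 with total counts (also *Atf6*, ratio 1.23), 1 without *Mrfap1*, 0 at day 14 alone, and 2 to 2 with replicate numbers left out, but without replicate 1 these were *Ern1* and *Creb3l2* (lower, ratio 0.789), with *Creb3l1* lost (1.15). The RQ rule and the ratio tests were run for the 9 genes only, so no share over all genes stands beside these counts. All 5 called ratios of 9 stayed called in every alternative (5 to 5 with replicate numbers left out). The cause was not tested. The replicate block changed the calls named above and no other call of the 9 genes.

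The following estimates changed sign, on the log2 scale. For days 14 and 21 against day 8 with total counts, *Mbtps1*, *Mbtps2* and *Nucb1* were called lower, and no other value below was called in the opposite direction. Het against WT at days 14 and 21, *Mbtps1* was 0.005 (DESeq2 size factors) and 0.038 (total counts), and *Hspa5* -0.052 at day 14 alone and -0.023 to 0.067 with libraries left out. At day 8, *Creb3* was 0.005 and 0.018 under the same 2 scalings. For the change in genotype difference, *Mbtps1* was -0.009 (TMM) and -0.007 to 0.087 with libraries left out, *Mbtps2* 0.011 (without *Mrfap1*) and -0.159 to 0.155, *Creb3* -0.093 to 0.086 and *Xbp1* -0.002 to 0.169. For days 14 and 21 against day 8, *Mbtps1* was -0.039, -0.002 and -0.157 and *Mbtps2* -0.083, -0.046 and -0.205 with TMM, DESeq2 size factors and total counts. With total counts, *Eif2ak3* was -0.054, *Nucb1* -0.112 and *Sec23a* -0.068, and in Het alone *Atf6b* was 0.110 and *Hspa5* 0.057. For day 21 against day 14 in Het alone, *Creb3l1* was 0.020, *Mbtps1* 0.005 and *Mbtps2* 0.074. Without *Sdha*, *Creb3l1* was 0.000 and *Mbtps2* 0.019, and *Mbtps2* was 0.001 without *Actg1* and 0.001 with the replicate block. With libraries left out, *Creb3l1* was -0.064 to 0.033, *Mbtps1* -0.112 to 0.013 and *Mbtps2* -0.109 to 0.102.

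Counts over all genes moved too. Het against WT at days 14 and 21 they were 3202, and 1300 without the day covariate, 5057 with the replicate 1 covariate, 34 at day 14 and 368 at day 21, 7582 without replicate 1 and 328, 258 and 139 without replicates 2, 3 and 4. A single library left out gave 2118 to 4870. At day 8 they were 0, and 285 with the replicate block, 704 with the replicate 1 covariate, 431 with DESeq2, 3432 without replicate 1, 1610 without Het replicate 1 and 244 without WT replicate 1. For the change in genotype difference they were 35, and 92 with DESeq2, 67 with the block, 73 with the covariate, 928 without replicate 1, 3, 1 and 0 without replicates 2, 3 and 4, and 10 to 97 without 1 library. For day 21 against day 14 they were 3824, and 69 in Het alone, 1704 without replicate 3, 1697 without replicate 4 and 2327 without replicate 2. For maturation they were 11911, and 7691 in Het alone. With TMM in place of the housekeeping genes, 2463 genes were higher and 1485 lower in Het at days 14 and 21 (1440 and 1762), 5601 rose and 6692 fell with maturation (8351 and 3560), and 2259 rose and 2156 fell from day 14 to 21 (2646 and 1178). Depth limited *Mbtps2* most, with 268 counts in its lowest library.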
